A study of Mus musculus with 3 samples.

Results

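The genes described here are 7 genes of Schwann cells and of their precursors: *Mbp* and *Pmp22*, which encode myelin proteins, *Erbb3* and *Gfra3*, which encode receptor components, *Fabp7* and *Cdh19*, which mark early glial cells, and *Foxd3*, a transcription factor gene of the neural crest. They were chosen by name, as 7 of the 19165 genes in the table, and all 7 were measured. Droplet-based 3' single-cell RNA sequencing was performed on back skin of C57BL/6 mice from embryonic days E13.5 and E16.5 and from birth (P0), with 1 library per stage from the pooled skin of male animals. The labels name no treatment and no altered gene. Skin of both embryonic stages was digested with trypsin and P0 skin with collagenase IV, so that stage and digestion cannot be told apart in comparisons with P0. The genes were described by stage and by lineage, and in the cells with at least 1 *Sox10* UMI and no *Pmel* UMI, called *Sox10*+ *Pmel*- cells. A UMI is a unique molecular identifier, which counts a captured transcript once. *Sox10* encodes a transcription factor shared by Schwann cells and melanocytes, and *Pmel* encodes a melanosome protein, and the rule keeps cells with the one and without the other. Such cells numbered 275 of 5962 in the E13.5 library, 192 of 5208 in that of E16.5 and 121 of 5065 in that of P0.

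Schwann cells come from the neural crest. Schwann cell precursors grow along embryonic nerves, depend on neuregulin signals from axons, and become immature Schwann cells. Around birth some of these begin to wrap axons in myelin, a stack of membrane held together by proteins such as MBP and PMP22, while others stay unmyelinated and ensheath thin axons. In the skin, precursors along the nerves also give rise to part of the melanocytes. ERBB3 is the neuregulin receptor of this lineage and signals with ERBB2, GFRA3 is the co-receptor for artemin and signals with RET, FABP7 binds fatty acids in radial glia and early Schwann cells, CDH19 is a cadherin of Schwann cell precursors, and FOXD3 keeps crest cells in an early state.

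RefSeq promoters (GRCm38.p6, 250 bases before to 50 bases after a transcription start) were at hand for *Foxd3*, *Fabp7* and *Pmp22*, and they are shown because these members differed in their course over the stages, as given below. *Foxd3* has 1 listed start, on the plus strand, in chr4:99656049-99656348. *Fabp7* has 1, on the plus strand, in chr10:57784673-57784972. *Pmp22* has 4 listed starts on the plus strand of chromosome 11, of which the most upstream (chr11:63128732-63129031) and the most downstream (chr11:63132553-63132852) are given. Reads from the 3' end of a transcript cannot tell which start was used. Capitals mark motifs searched on both strands.
Foxd3: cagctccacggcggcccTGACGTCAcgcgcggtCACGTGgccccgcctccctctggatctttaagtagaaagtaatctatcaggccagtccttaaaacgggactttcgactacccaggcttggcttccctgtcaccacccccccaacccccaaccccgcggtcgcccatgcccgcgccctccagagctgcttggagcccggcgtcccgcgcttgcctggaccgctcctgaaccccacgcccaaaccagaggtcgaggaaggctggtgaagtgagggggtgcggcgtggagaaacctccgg
Fabp7: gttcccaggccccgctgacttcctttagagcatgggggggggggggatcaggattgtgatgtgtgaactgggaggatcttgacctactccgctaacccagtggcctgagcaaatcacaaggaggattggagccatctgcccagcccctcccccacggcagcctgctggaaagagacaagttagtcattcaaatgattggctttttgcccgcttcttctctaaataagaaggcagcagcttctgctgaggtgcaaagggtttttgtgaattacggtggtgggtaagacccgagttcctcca
Pmp22, upstream start: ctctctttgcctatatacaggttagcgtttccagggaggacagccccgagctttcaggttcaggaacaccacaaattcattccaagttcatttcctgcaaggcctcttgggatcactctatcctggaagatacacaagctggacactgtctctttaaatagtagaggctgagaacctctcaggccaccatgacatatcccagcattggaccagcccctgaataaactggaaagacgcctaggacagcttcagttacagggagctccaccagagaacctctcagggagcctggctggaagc
Pmp22, downstream start: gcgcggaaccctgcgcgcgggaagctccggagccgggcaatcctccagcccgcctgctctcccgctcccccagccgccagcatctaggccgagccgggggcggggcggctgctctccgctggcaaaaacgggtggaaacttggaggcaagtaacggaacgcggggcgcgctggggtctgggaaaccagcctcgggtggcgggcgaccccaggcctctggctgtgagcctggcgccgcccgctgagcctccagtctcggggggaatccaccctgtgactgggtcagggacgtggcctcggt

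The letters searched were ACAAAG, the core of SOX protein sites, CACGTG, an E-box, TGACGTCA, a cyclic AMP response element, and TATAAA, the TATA box. The letters were chosen after the data had been seen. Of the windows of these genes, all 4 of *Pmp22* included, only that of *Foxd3* held any: TGACGTCA began 233 bases and CACGTG 217 bases before the start. Of all 32851 promoters of this length, 1.79% held TGACGTCA, 7.15% held CACGTG, 18.7% held ACAAAG and 13.6% held TATAAA. A match is a match of letters and not a site in use. The share of G and C was 65.7% in the *Foxd3* window, 54% in that of *Fabp7*, and 50.7% at the upstream against 72.3% at the downstream start of *Pmp22*, with a median of 52.7% over all promoters.

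The 3 libraries held 16235 cells and 166173741 UMIs. The median *Sox10*+ *Pmel*- cell had 9384, 12048 and 6637 UMIs in the E13.5, E16.5 and P0 libraries. Between 32 and 44 cell barcodes were shared by any 2 libraries. A level is the summed UMIs of a gene in a group of cells per 1000000 UMIs of all genes there (CPM), with an exact 95% Poisson interval. These intervals cover counting error only. Each stage had 1 library, no difference has a replicate check, and no p-value is given. A gene was called higher or lower when the ratio of 2 levels was at least 2-fold and its exact binomial interval left out 1, among genes with at least 50 UMIs in both groups together. With a single library on each side, such a call describes these libraries. Each library was also clustered with the 7 genes kept out of the clustering, and clusters were named from marker lists that hold none of the 7. A cluster named from Schwann cell markers is called Schwann-like, and so on.

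The *Sox10*+ *Pmel*- cells were not all glial, and their makeup differed between stages. Of the 275 cells at E13.5, 119 were Schwann-like (43.3%), as were 103 of the 192 at E16.5 (53.6%) and 78 of the 121 at P0 (64.5%). The others lay mostly in dermal-like clusters at E16.5 (58 cells, 30.2%), and in epithelial-like (22 cells, 18.2%) and dermal-like (14 cells, 11.6%) clusters at P0, while at E13.5 they were spread over all other groups, led by dermal-like cells (41 cells, 14.9%). The 8 markers of Schwann cells, which include *Sox10* itself, summed to 564, 887 and 1642 CPM in *Sox10*+ *Pmel*- cells at the 3 stages, and to 1017, 1793 and 3601 CPM in those of them that were Schwann-like. None was at 0 in these cells at any stage, and outside them the sums were 23.3, 19.9 and 29.4 CPM. The 8 markers of melanocytes, which include *Pmel*, summed to 15.6, 9.23 and 25.3 CPM. The main level of each of the 7 members is therefore given for all *Sox10*+ *Pmel*- cells and again for the Schwann-like ones among them. Levels of single other genes are given for all *Sox10*+ *Pmel*- cells only. The part of the makeup in their changes between stages was not tested. Markers of dermal cells also moved between stages in the Schwann-like ones, from 2924 CPM at E13.5 to 7667 and 8491 CPM, beside 6047, 17610 and 17775 CPM in the cells outside the *Sox10*+ *Pmel*- group. None of the 8 dermal markers was at 0. The 8 erythroid markers summed to 11302, 1022 and 576 CPM in the Schwann-like ones, with 4 of them at 0 at P0. The 8 epithelial markers summed to 46.2, 2033 and 604 CPM in the Schwann-like ones, with none at 0, to 221, 2889 and 4692 CPM in all *Sox10*+ *Pmel*- cells, and to 426, 3090 and 7231 CPM outside them. The 9 neural markers summed to 360, 96.6 and 64.8 CPM in the Schwann-like ones, with 2 at 0 at E16.5 and 5 at P0. The 7 neural progenitor markers went from 163 to 82.99 and 31.3 CPM there. The part of these lists in the levels and in their changes between stages was not tested. Outside the group lay 68 of 187 Schwann-like cells at E13.5, 6 of 109 at E16.5 and 19 of 97 at P0, of which 9, 2 and 5 had both *Sox10* and *Pmel* UMIs and the others had no *Sox10* UMI.

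**Figure D1:**
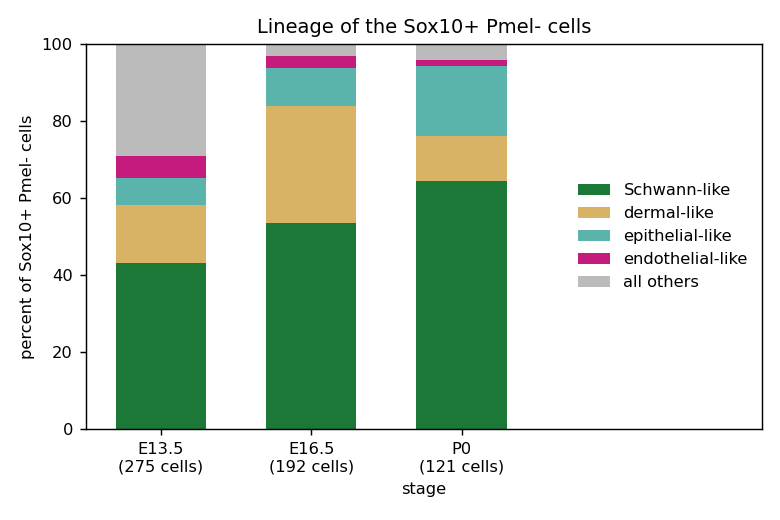
Percent of *Sox10*+ *Pmel*- cells (vertical axis, 0 to 100) that belonged to each lineage at each stage (horizontal axis), as stacked bars. Schwann-like cells make up 43.3%, 53.6% and 64.5% from the earliest to the latest stage.

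The first comparison asked whether the 7 genes marked the *Sox10*+ *Pmel*- cells among all cells of the skin. At E13.5 *Erbb3*, *Fabp7*, *Gfra3*, *Cdh19* and *Foxd3* were at least 2-fold higher there than in all other cells, and *Mbp* and *Pmp22* were not. At E16.5 *Mbp* joined them, and at P0 all 7 did. The counts were 5, 6 and 7 of the 7 members, against 2.83%, 4.39% and 5.05% of all genes tested that were called higher. The largest ratio was that of *Foxd3* at E13.5 (35.4-fold, 95% interval 27.93 to 44.99) and that of *Gfra3* at E16.5 (133-fold, 109 to 164) and P0 (146-fold, 117 to 184). *Pmp22* had the smallest at each stage: 0.703 (0.623 to 0.790) at E13.5, 1.46 (1.35 to 1.58) at E16.5 and 2.36 (2.17 to 2.56) at P0. That of *Mbp* was 1.95 (1.08 to 3.29), 24.9 and 80.0.

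**Figure D2:**
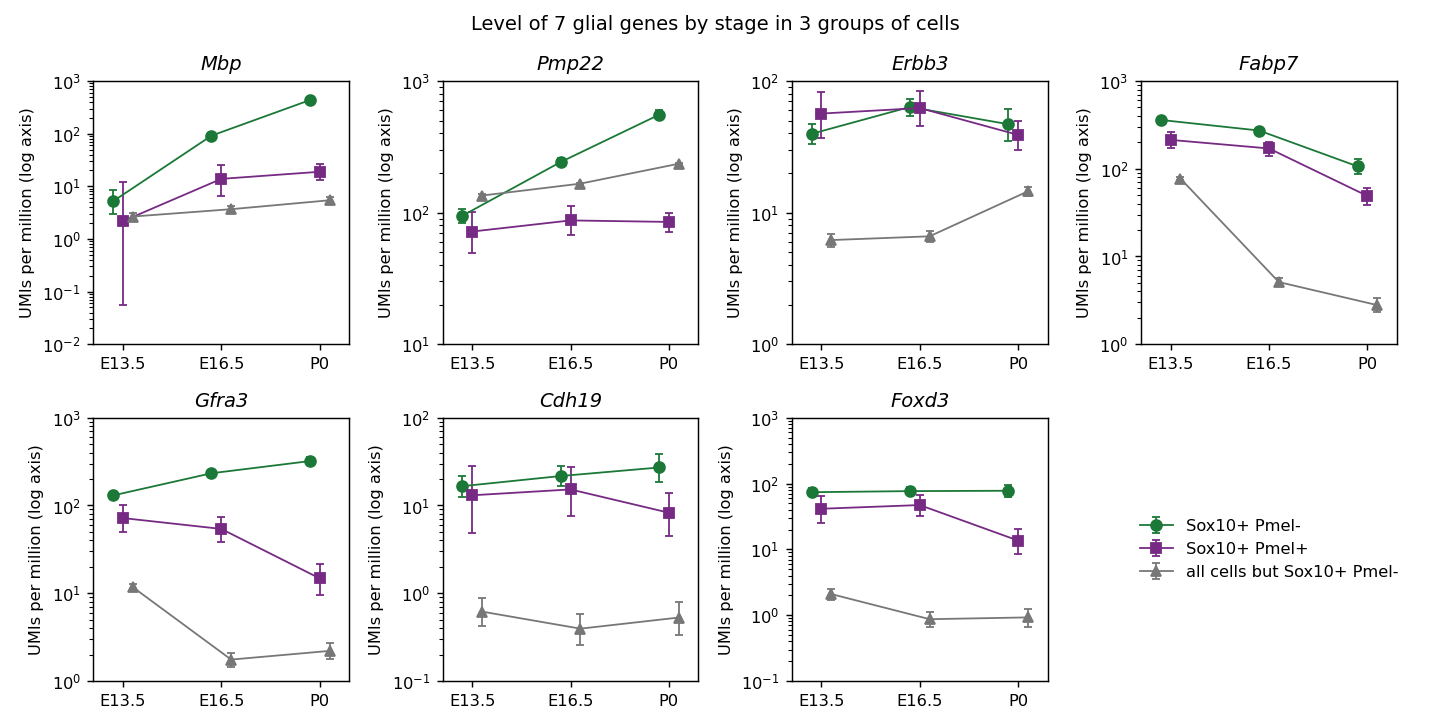
Level of each gene in UMIs per 1000000 (vertical log axes, which differ between panels) at each stage, in *Sox10*+ *Pmel*- cells, in *Sox10*+ *Pmel*+ cells and in all cells but the *Sox10*+ *Pmel*- ones, with 95% Poisson intervals that cover counting error only. *Mbp* in *Sox10*+ *Pmel*- cells runs from 5.21 to 434 CPM, while *Foxd3* lies between 73.9 and 77.7 CPM at all 3 stages.

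Among the myelin genes, *Mbp* (chromosome 18, 82475146 to 82585637, plus strand, GRCm38) encodes the protein that compacts the inner faces of the myelin membrane. Its level in *Sox10*+ *Pmel*- cells was 5.21 CPM at E13.5 (2.98 to 8.45, from 16 UMIs), 91.6 at E16.5 (80.7 to 103) and 434 at P0 (396 to 475), so that no stage overlapped another. Schwann-like ones among them held 7.01, 185 and 965 CPM. The ratio of E16.5 to E13.5 was 17.6 (10.6 to 31.2) in all of them and 26.4 (14.1 to 55.7) in the Schwann-like ones, and that of P0 to E16.5 was 4.74 (4.07 to 5.54) and 5.22 (4.46 to 6.12). In the *Sox10*+ *Pmel*- cells that were not Schwann-like, *Mbp* was at 3.64, 8.72 and 30.2 CPM. These values rest on 6, 13 and 19 UMIs, and those at P0 (18.2 to 47.2 CPM) lay in 4 of 43 cells. All cells outside the group held 2.67, 3.67 and 5.43 CPM. The *Mbp* transcripts were not spread evenly: at P0, 10 of the 78 Schwann-like cells held 221 of 462 *Mbp* UMIs (47.8%) and the richest cell held 44, and 56 of the cells held any. At E13.5 only 8 of 119 such cells held any, with at most 3 UMIs in a cell. Uneven spread was not particular to *Mbp* or to P0. For the other members the 10 richest Schwann-like cells at P0 held between 30.3% (*Gfra3*) and 64.3% (*Cdh19*) of the UMIs. At E16.5 the 10 richest of 103 such cells held 60.4% of the *Mbp* UMIs. GENCODE lists 14 protein-coding transcripts of *Mbp*, which were not told apart here.

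*Pmp22* (chromosome 11, 63128982 to 63159547, plus strand), the gene of a membrane protein of compact myelin, was also higher at each later stage, from a higher start. Its level in *Sox10*+ *Pmel*- cells was 94.7 CPM at E13.5 (84.1 to 106), 242 at E16.5 (225 to 261) and 554 at P0 (511 to 600). Their Schwann-like ones had 84.1, 355 and 1057 CPM. The ratio of E16.5 to E13.5 was 2.56 (2.23 to 2.95), or 4.23 (3.45 to 5.21) in the Schwann-like ones, and that of P0 to E16.5 was 2.29 (2.05 to 2.55), or 2.97 (2.62 to 3.38). Unlike *Mbp* it was plentiful outside the lineage, with 135, 166 and 235 CPM in all other cells. The *Sox10*+ *Pmel*- cells lay below these at E13.5 and above them at E16.5 and P0. Only 6.09% or less of the *Pmp22* UMIs of a library came from *Sox10*+ *Pmel*- cells, while 66.1% of those of *Mbp* did at P0.

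Of the receptors, *Erbb3* (chromosome 10, 128567523 to 128589652, minus strand) had 39.7 CPM in *Sox10*+ *Pmel*- cells at E13.5 (33.0 to 47.4), 63.5 at E16.5 (54.6 to 73.6) and 47.0 at P0 (35.1 to 61.6). The interval at P0 overlapped both others. The Schwann-like ones had 77.1, 122 and 85.6 CPM, so E16.5 was the highest of the 3 in both. Neither step was 2-fold: the ratio of E16.5 to E13.5 was 1.60 (1.26 to 2.03) and that of P0 to E16.5 was 0.739 (0.532 to 1.011). In the Schwann-like ones these ratios were 1.59 (1.24 to 2.04) and 0.701 (0.485 to 0.992), and both intervals left out 1. The ratio of all *Sox10*+ *Pmel*- cells to all other cells for *Erbb3* was 9.62 at E16.5 and 3.23 at P0. The other cells had 6.61 and 14.5 CPM.

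*Gfra3* (chromosome 18, 34689898 to 34720387, minus strand) had 130 CPM at E13.5 (118 to 144), 233 at E16.5 (215 to 251) and 321 at P0 (288 to 356) in *Sox10*+ *Pmel*- cells, with no overlap between stages. Among the Schwann-like ones the levels were 257, 488 and 716 CPM. Each step stayed under 2-fold, with ratios of 1.79 (1.58 to 2.03) and 1.38 (1.21 to 1.57), while P0 over E13.5 was 2.46-fold (2.13 to 2.85). All Schwann-like cells, 2.09% and 1.92% of the cells at E16.5 and P0, held 90.7% and 90.3% of the *Gfra3* UMIs of these libraries, the highest share of the 7 members. At E13.5 they held 45.5%, and *Foxd3* led with 71.1%.

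The early glial genes differed from each other. *Fabp7* (chromosome 10, 57784881 to 57788450, plus strand) had 360 CPM at E13.5 (339 to 382), 273 at E16.5 (254 to 293) and 107 at P0 (88.2 to 128) in *Sox10*+ *Pmel*- cells, each stage below the one before. Schwann-like cells among them had 642, 567 and 240 CPM. The later step was over 2-fold, with a ratio of P0 to E16.5 of 0.391 (0.319 to 0.475), or 0.423 (0.345 to 0.516) in the Schwann-like ones. No other member was called lower between successive stages. The earlier step turned its direction when each cell had the same weight, with 330 CPM at E13.5 and 401 at E16.5. *Cdh19* (chromosome 1, 110888326 to 110977584, minus strand) had 16.6 CPM at E13.5 (12.4 to 21.8), 21.7 at E16.5 (16.6 to 27.8) and 27.1 at P0 (18.3 to 38.7), with intervals that overlapped between successive stages. The Schwann-like ones held 31.5, 44.5 and 58.5 CPM. These values rest on 51, 61 and 30 UMIs in all *Sox10*+ *Pmel*- cells.

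*Foxd3* (chromosome 4, 99656299 to 99658622, plus strand) had nearly the same level at the 3 stages in *Sox10*+ *Pmel*- cells: 73.9 CPM at E13.5 (64.6 to 84.1), 76.7 at E16.5 (66.8 to 87.6) and 77.7 at P0 (62.1 to 95.9). The ratio of E16.5 to E13.5 was 1.04 (0.858 to 1.26) and that of P0 to E16.5 was 1.013 (0.779 to 1.31). The ratios in the Schwann-like ones were 1.14 (0.932 to 1.38) and 1.09 (0.834 to 1.40), from 142, 161 and 175 CPM. With the same weight for each cell the levels were 61.0, 103 and 119 CPM, and the stages then did not lie as close. Over the whole library *Foxd3* had 6.22, 4.09 and 2.75 CPM, and Schwann-like cells were 3.14%, 2.09% and 1.92% of the cells.

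Over the 7 members, 2 were called higher at E16.5 than at E13.5, *Mbp* and *Pmp22*, against 5.12% of all genes tested, and none lower, against 4.22%. From E16.5 to P0 the same genes were called higher, against 3.95%, and *Fabp7* was called lower, against 10.2%. In the Schwann-like ones among these cells the calls fell on the same members, against 4.9% higher and 3.09% lower in the earlier step and 5.03% higher and 9.37% lower in the later one. With at least 2500 genes per cell, 51 cells were left at P0, where *Mbp* stood at 272, *Pmp22* at 352, *Foxd3* at 44.6 and *Cdh19* at 13.52 CPM, and *Pmp22* was then no longer called higher than at E16.5. When each cell had the same weight, these genes had 688, 822, 119 and 44.9 CPM at P0. Among *Sox10*+ *Pmel*- cells at P0, the median cell had 2084 genes in the Schwann-like ones and 2697 in the others. How many of the 51 cells with at least 2500 genes were Schwann-like is not given. The part of their makeup in these levels and in the *Pmp22* call was not tested.

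The share of cells with a UMI of a gene was compared after each cell had been thinned to 3500 UMIs, since depth differed between libraries. In Schwann-like *Sox10*+ *Pmel*- cells the share with an *Mbp* UMI was 4.20% at E13.5 (exact binomial interval 1.38 to 9.53), 34.0% at E16.5 (24.9 to 44.0) and 64.1% at P0 (52.4 to 74.7). For *Pmp22* it was 18.5%, 52.4% and 93.6%. For *Fabp7* it was 78.2% (69.6 to 85.2), 70.9% (61.1 to 79.4) and 44.9% (33.6 to 56.6). The *Mbp* intervals did not overlap, while those of *Fabp7* overlapped at E13.5 and E16.5 and the P0 interval lay below both. *Gfra3* was seen in 48.7%, 70.9% and 83.3% of the cells. *Foxd3* was seen in 26.9%, 40.8% and 46.2%, with intervals of 19.2 to 35.8, 31.2 to 50.9 and 34.8 to 57.8. *Erbb3* was seen in 21.8%, 38.8% and 25.6%, and *Cdh19* in 9.24%, 13.6% and 17.9%. Without thinning the *Mbp* shares were 6.72%, 52.4% and 71.8% and those of *Fabp7* 90.8%, 90.3% and 57.7%. The unthinned shares were 43.7%, 90.3% and 96.2% for *Pmp22* and 69.7%, 98.1% and 91.0% for *Gfra3*. They were 56.3%, 76.7% and 56.4% for *Foxd3*, 50.4%, 72.8% and 39.7% for *Erbb3*, and 26.1%, 37.9% and 25.6% for *Cdh19*, with E16.5 highest for these 3 before thinning.

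Endothelial-like cells were used for the background of free RNA. Their share with a UMI, likewise thinned, was at most 2.26% for *Mbp*, *Erbb3*, *Gfra3*, *Cdh19* and *Foxd3* at any stage. For *Fabp7* it was 6.52% at E13.5 (4.30 to 9.40), 0.285% at E16.5 and 0 of 255 cells at P0, for which a count of 3 cells sets a limit of 1.18% and the exact binomial interval one of 1.44%. *Pmp22* is used by many cell types and was seen in 21.8%, 8.83% and 21.6% of endothelial-like cells, so that its share in Schwann-like cells at E13.5, with an interval of 12.0 to 26.6%, was not above that in another cell type. The interval of the *Mbp* share in Schwann-like cells at E13.5, from 1.38 to 9.53%, touched that of endothelial-like cells, 0.00635 to 1.39%. The medians before thinning were 10313, 10692 and 5152 UMIs in the Schwann-like cells, and 7626, 16540 and 9668 in the endothelial-like cells.

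**Figure D3:**
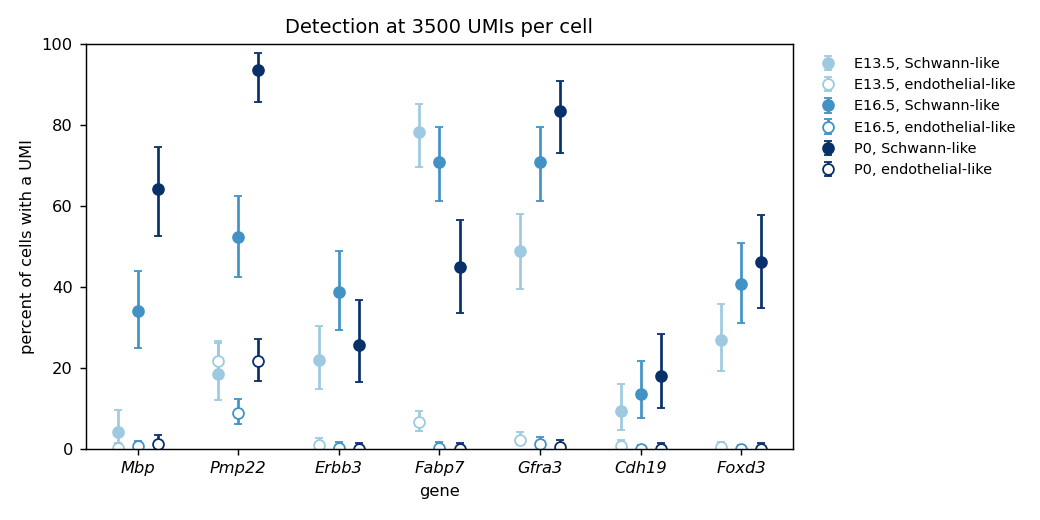
Percent of cells with at least 1 UMI of each gene (vertical axis) after thinning each cell to 3500 UMIs, in Schwann-like *Sox10*+ *Pmel*- cells (filled) and in endothelial-like cells (open), by stage, with exact 95% binomial intervals. *Mbp* stands at 4.20%, 34.0% and 64.1% and *Fabp7* at 78.2%, 70.9% and 44.9%.

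*Mbp* and *Fabp7* were then counted together in single cells, where cells with *Fabp7* alone were most common at E13.5 and E16.5 and cells with *Mbp* alone at P0. At E13.5, 90 of 119 thinned Schwann-like *Sox10*+ *Pmel*- cells (75.6%) had *Fabp7* without *Mbp*, 2 had *Mbp* without *Fabp7* and 3 had both. At E16.5, 54 of 103 cells (52.4%) had *Fabp7* alone, 16 (15.5%) had *Mbp* alone and 19 (18.4%) had both. At P0, 14 of 78 cells (17.9%) had *Fabp7* alone, 29 (37.2%) had *Mbp* alone and 21 (26.9%) had both. Cells with neither numbered 24, 14 and 14, and at this depth a gene can be missed in a cell that uses it. A median of 2, 3 and 4 of the 7 members was seen per cell. Cells with 3 or more members were 33.6%, 68.0% and 88.5%.

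**Figure D4:**
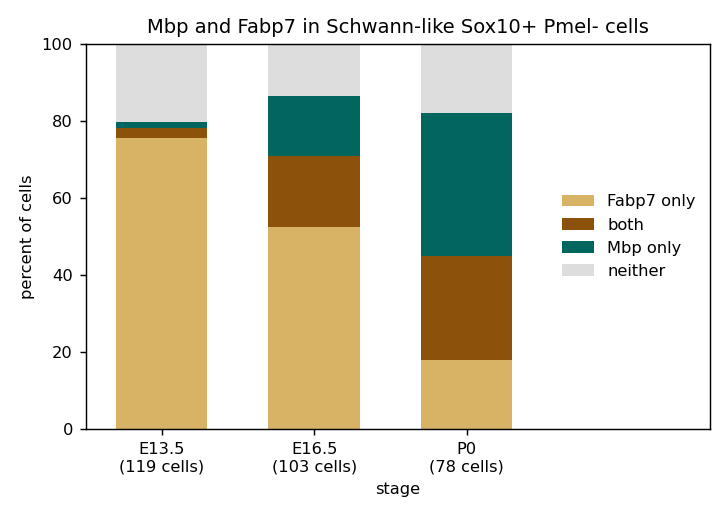
Percent of Schwann-like *Sox10*+ *Pmel*- cells (vertical axis) with a UMI of *Fabp7* alone, of both genes, of *Mbp* alone or of neither, at 3500 UMIs per cell, by stage, as stacked bars. Cells with *Fabp7* alone were 75.6%, 52.4% and 17.9%, and cells with *Mbp* alone 1.68%, 15.5% and 37.2%.

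The next comparison set the *Sox10*+ *Pmel*- cells against the *Sox10*+ *Pmel*+ cells, of which there were 39, 60 and 111 at the 3 stages. Of these, 24, 53 and 95 were melanocyte-like and 9, 2 and 5 Schwann-like. At E13.5 none of the 6 members with enough UMIs was called higher in the *Pmel*- cells, against 3.11% of all genes tested. At E16.5 *Mbp* (6.61-fold, 3.54 to 13.96), *Gfra3* (4.31-fold, 3.12 to 6.12) and *Pmp22* (2.78-fold, 2.14 to 3.66) were, against 11.2%. At P0 *Mbp* (23.0-fold, 16.1 to 34.0), *Gfra3* (21.7-fold, 14.5 to 34.0), *Pmp22* (6.52-fold, 5.43 to 7.88), *Foxd3* (5.72-fold, 3.58 to 9.50) and *Fabp7* (2.18-fold, 1.63 to 2.92) were, against 9.21%. No member was called lower at any stage, against 2.21%, 3.93% and 3.54% of all genes tested. *Cdh19* was 3.28-fold higher at P0 (1.69 to 6.69) but had only 44 UMIs. The counts at E13.5 and E16.5 depended on the settings, as given at the end.

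*Erbb3* did not pass 2-fold at any stage, with ratios of 0.701 (0.456 to 1.12), 1.02 (0.732 to 1.45) and 1.21 (0.822 to 1.76), all of which include 1. *Gfra3* in the *Sox10*+ *Pmel*+ cells came mostly from the few Schwann-like ones: 32 of 33 UMIs at E13.5, 34 of 39 at E16.5 and 24 of 25 at P0. The same held for *Mbp* at P0, with 24 of 32 UMIs in 5 Schwann-like cells and 7 in 95 melanocyte-like cells. *Fabp7* lay in the melanocyte-like cells themselves at the later stages, with 105 of 123 UMIs at E16.5 and 79 of 83 at P0. *Foxd3* did as well, with 28 of 34 UMIs at E16.5 and 18 of 23 at P0. *Cdh19* had 8 of 11 and 12 of 14 UMIs there.

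Across lineages, Schwann-like cells had the highest level of all named lineages with at least 50 cells for 4 members at E13.5 and for all 7 at both later stages. This is a description, since the clusters were made from the same cells, and a member that follows the clustering genes had to differ. The share of all genes that were highest in Schwann-like cells is not given, so these counts are not read as a trait of the members. At E13.5 the exceptions were *Mbp*, *Pmp22* and *Fabp7*: 6 members were called higher in Schwann-like cells than in all other cells, against 4.17% of genes, but *Mbp* by 2.13-fold only (1.04 to 3.94, from 11 UMIs). At E16.5 and P0 all 7 were called higher, against 7.71% and 9.27% of genes.

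*Mbp* in Schwann-like cells had 5.77 CPM at E13.5 (2.88 to 10.3), 186 at E16.5 (164 to 210) and 947 at P0 (870 to 1030). At E13.5 the order was led by epithelial-like cells with 12.7 CPM, and mast-like, Schwann-like and neural progenitor-like cells followed with overlapping intervals. At E16.5 the next lineage, epithelial-like cells, had 9.61 CPM, and at P0 immune-like cells had 7.47 CPM, and these did not overlap the Schwann-like cells. *Pmp22* was highest in cartilage or tendon-like cells at E13.5, with 215 CPM (199 to 232), and dermal-like cells followed with 183 and Schwann-like cells, behind erythroid-like ones, with 101 (86.9 to 116). At E16.5 Schwann-like cells led with 359 CPM (329 to 393) before dermal-like cells with 252, and at P0 with 1023 (942 to 1109) before 525 and pericyte-like cells with 435. These neighbours in the order did not overlap. In 4 dermal-like clusters (3 at E16.5 and 1 at P0), the 10 leading genes held more markers of another class than dermal ones. Without these clusters the *Pmp22* level of dermal-like cells was 259.8 CPM at E16.5 and 524 at P0, so that Schwann-like cells still led.

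*Erbb3* had clear levels in other lineages too. After Schwann-like cells with 68.7, 124 and 82.97 CPM came melanocyte-like cells with 49.4, 59.8 and 37.9 CPM and epithelial-like cells with 23.9, 21.6 and 26.5 CPM. Schwann-like and melanocyte-like cells overlapped at E13.5 and not later. At E13.5 muscle-like cells held 13.3 CPM. *Cdh19* had 25.2, 45.7 and 55.3 CPM in Schwann-like and 12.4, 12.0 and 9.64 CPM in melanocyte-like cells, again with overlap at E13.5 only, and at most 1.81 CPM in any other of these lineages. *Foxd3* had the same order, with 124, 163 and 173 CPM against 19.4, 41.9 and 12.9 CPM, with no overlap at any stage. *Gfra3* had 236, 504 and 710 CPM in Schwann-like cells, and no other named lineage of this size was above 14.6 CPM. That level was the one of dermal-like cells at E13.5. As 39.2% of the cells of that library, they held 319 of its 989 *Gfra3* UMIs (32.3%).

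*Fabp7* was highest outside the lineage at E13.5. A cluster of 84 neural progenitor-like cells in the E13.5 library held 5060 CPM (4869 to 5257), against 572 (539 to 607) in Schwann-like and 111 (85.5 to 142) in melanocyte-like cells. They gave 52.8% of all *Fabp7* UMIs of that library, and Schwann-like cells gave 21.9%. At E16.5 and P0 Schwann-like cells led, with 592 and 233 CPM, before melanocyte-like cells with 158 and 51.4 CPM, and these did not overlap.

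**Figure D5:**
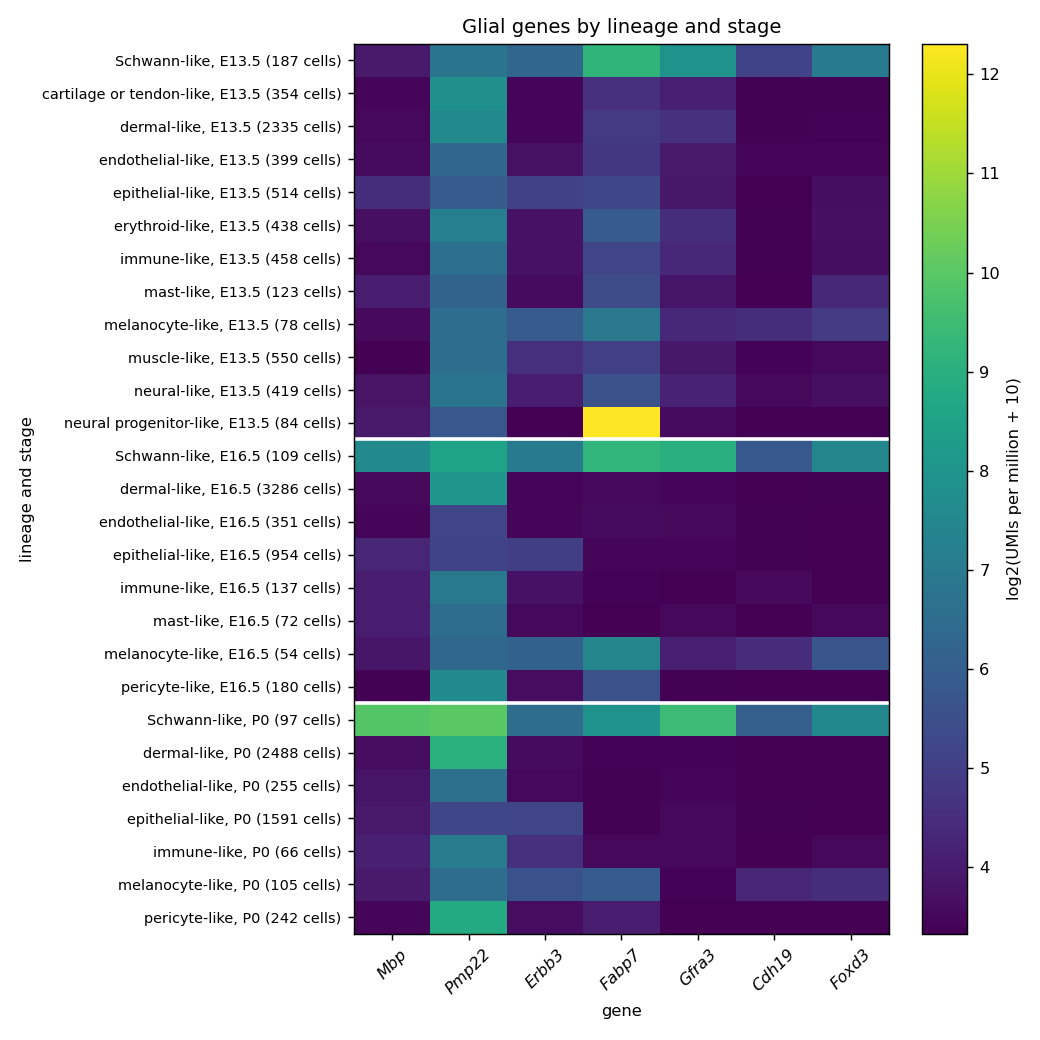
Level of each gene, as log2 of UMIs per 1000000 plus 10 (colour), in each named lineage with at least 50 cells (vertical axis) at each stage, separated by white lines. The 7 genes (horizontal axis) are together high in Schwann-like cells at E16.5 and P0, *Pmp22* is also high in dermal-like and pericyte-like cells, and *Fabp7* peaks in neural progenitor-like cells at 5060 CPM.

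Over these 27 lineage-by-stage groups, the genes most like each member were found by Pearson's r of log2(CPM + 10). The groups share 3 libraries and differ in depth, and r is given as a description. *Cdh19* and *Foxd3* were closest to each other among the members (r = 0.970), and both had *Scrg1* (0.981 and 0.975) beside them. *Gfra3* was followed by *Lgi4* (0.978), whose product is secreted by Schwann cells and needed for peripheral myelin, *Col20a1* (0.974) and *Gpr17* (0.965). *Mbp* was followed by *Tmprss5* (0.972), *Mlip* (0.958) and *Plekhb1* (0.949). *Pmp22* stood apart with *Lama2* (0.905), a laminin chain of basement membranes, *Fxyd1* (0.898) and *Rarres2* (0.882), and its r with the other members lay between 0.0812 and 0.496. *Erbb3* was followed by *Fhdc1* (0.896), *Ppp1r14c* (0.895) and *Rab38* (0.889), which serves melanosome formation. *Fabp7* was followed by *Zfp24* (0.888), *Gpm6b* (0.887) and *Nkain4* (0.881). The r of *Mbp* with *Fabp7* was 0.388.

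Other genes of myelin were read from a list of 16, of which 14 are not members. In *Sox10*+ *Pmel*- cells against all others, 5 of the 6 with at least 50 UMIs were called higher at E13.5, 8 of 9 at E16.5 and 6 of 6 at P0, with medians of 4.19, 4.01 and 5.55 on the log2 scale, against medians of -0.03, 0.00 and 0.04 over all genes. Of all genes tested, 2.83%, 4.39% and 5.05% were called higher in this comparison, and 3.11%, 11.2% and 9.21% in that with *Sox10*+ *Pmel*+ cells. Between stages 5.12% were called higher and 4.22% lower in the earlier step, and 3.95% and 10.2% in the later one. The same shares stand behind the counts of the lists that follow. From E13.5 to E16.5, 4 of 7 were called higher in these cells, with a median of 1.40 against -0.09. Among them, *Mag*, the gene of an adhesion protein of the inner wrap, went from 2.28 to 19.5 CPM, *Mal*, a lipid raft protein, from 48.2 to 130 CPM, and *Gldn*, a protein of the node of Ranvier, from 11.1 to 29.1 CPM. In the Schwann-like ones 5 of 7 were called higher in this step, with *Cnp* added to the 4, where 4.9% of all genes were. From E16.5 to P0, 3 of 8 were called higher in all *Sox10*+ *Pmel*- cells, with a median of 0.76 against -0.12. These were *Prx*, which links the Schwann cell to its basement membrane (9.58 to 27.1 CPM), *Cnp* (119 to 298 CPM) and the connexin gene *Gjc3* (16.0 to 37.9 CPM). *Gjc3*, *Dhh* and *Egfl8* were also among the markers that named the Schwann-like cells. Against the *Sox10*+ *Pmel*+ cells, 0 of 5, 4 of 7 and 4 of 5 of the myelin genes were called higher (medians 0.02, 1.52 and 4.89, against 0.00, 0.05 and 0.04 over all genes), and *Gjc3* was called lower at E13.5 and E16.5.

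Of the transcription factors of the lineage, 10 are neither members nor used to choose the cells. At E13.5, 5 of 9 were called higher in *Sox10*+ *Pmel*- cells than in all others, at E16.5 4 of 9 and at P0 4 of 9, with medians of 1.07, 0.58 and 0.84, against -0.03, 0.00 and 0.04 over all genes and 2.83%, 4.39% and 5.05% of them called. *Sox2*, *Pax3* and *Pou3f1* were among them at every stage. In the Schwann-like ones *Nab1* was called higher from E13.5 to E16.5, as 1 of 8, against 4.9% of all genes. In all *Sox10*+ *Pmel*- cells none of 8 was called in this step (median 0.58 against -0.09). From E16.5 to P0, *Pou3f1*, a factor of promyelinating Schwann cells, went from 78.1 to 255 CPM (3.26-fold, 2.72 to 3.91) and *Nab2*, a partner of EGR2, from 33.4 to 82.2 CPM, as 2 of 8 with a median of -0.36, against 3.95% of all genes and a median of -0.12. *Egr2*, which drives myelin genes, had 3 UMIs (1.06 CPM) in these cells at E16.5 and 8 (7.22 CPM) at P0, below the 9.74 CPM of the other cells. Against the *Sox10*+ *Pmel*+ cells, 2 of 8, 2 of 8 and 2 of 7 of these factors were called higher at the 3 stages. Of all genes tested, 3.11%, 11.2% and 9.21% were. Those higher were *Sox2* and *Pou3f1* at E13.5 and E16.5, and *Pou3f1* and *Zeb2* at P0. Another 2, *Pax3* and *Tfap2a*, were called lower at every stage, against 2.21%, 3.93% and 3.54% of all genes. For example, *Pax3* had 62.8 against 403 CPM at E16.5.

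Of the genes of precursor and immature Schwann cells, 10 are not members. Against all other cells, 7 of 9 were called higher at E13.5, 9 of 10 at E16.5 and 7 of 9 at P0, with medians of 1.85, 3.09 and 3.32, against -0.03, 0.00 and 0.04 over all genes and 2.83%, 4.39% and 5.05% of them called. Between stages they divided. *Dhh*, the hedgehog ligand that organizes the nerve sheath, went from 5.86 to 19.5 CPM, *Egfl8* from 56.9 to 205 CPM and *S100b* from 13.7 to 28.0 CPM by E16.5, while *Gap43*, a protein of growing axons and immature glia, went from 750 to 358 CPM, so that 3 of 10 were called higher and 1 lower (median -0.18, against -0.09 over all genes). By P0 *Gap43* stood at 173 CPM and the integrin gene *Itga4* at 15.4 after 50.8 CPM, with 0 of 10 higher and 2 lower (median 0.04, against -0.12). In the Schwann-like ones alone *Gap43* was no longer called in this step. *Ngfr*, the low-affinity neurotrophin receptor, had 145, 135 and 211 CPM. Against the *Sox10*+ *Pmel*+ cells, 2 of 8, 8 of 10 and 7 of 8 of these genes were called higher (medians 0.40, 2.58 and 3.16, against 0.00, 0.05 and 0.04), where 3.11%, 11.2% and 9.21% of all genes were.

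Among the partners of the receptors, the ErbB and GDNF families were counted separately. Of the 7 other ErbB receptors and neuregulins, *Erbb2* had 21.5, 29.1 and 28.0 CPM in *Sox10*+ *Pmel*- cells and 21.3, 18.9 and 20.5 CPM in all other cells, and none was called higher in any stage, of 4, 3 and 2 tested (medians -0.50, 0.23 and 0.19, against -0.03, 0.00 and 0.04 over all genes). *Nrg1* was called lower at E13.5, with 2.60 against 5.83 CPM, where 2.83% of all genes tested were called lower. Against the *Sox10*+ *Pmel*+ cells *Erbb2* was 3.50-fold higher at E16.5 and 2.26-fold higher at P0. Between stages none of the 2 and 1 tested was called (medians 0.36 and -0.06, against -0.09 and -0.12). Of the 8 other genes of the GDNF family, 3 of 5, 4 of 6 and 3 of 5 were called higher than in other cells (medians 1.48, 1.93 and 2.33, against -0.03, 0.00 and 0.04), with *Gfra1* and *Gfra2*, the co-receptors for GDNF and neurturin, at every stage. *Artn*, which encodes the ligand of GFRA3, had 9.23 CPM in these cells at E16.5 and 30.7 at P0 (3.33-fold, 1.94 to 5.77), against 0.378 and 3.14 CPM in all others. *Ret*, the signalling receptor, had 0 UMIs in these cells at E13.5 and E16.5, which allows up to 0.976 and 1.06 CPM by a count of 3, and 1 UMI at P0. *Gfra2* had 26.4, 76.3 and 112 CPM, and *Gfra1* 121, 89.1 and 41.5 CPM. From E13.5 to E16.5, *Gfra2* and *Nrtn* were called higher (2 of 5, median 0.71 against -0.09), and from E16.5 to P0 *Artn* was called higher and *Gfra1*, *Gfra4* and *Gdnf* lower (1 and 3 of 6, median -0.50 against -0.12). In the Schwann-like ones *Gfra1* was not called, *Gfra4* and *Gdnf* had too few UMIs to be tested, and 1 of 4 was called higher.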

How the data were processed

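Back skin of C57BL/6 mice was profiled with 10x 3' v2 chemistry in 3 libraries, 1 per stage, each from pooled male animals. Per the methods and the labels, the authors ran Cell Ranger 2.2.0 against mm10 and filtered in Seurat for cells with 1750 genes or more. The deposited table holds 16235 cells, which is more than the paper reports after its filtering. This held for each of the 3 libraries, most of all for that of E13.5, and the reason is not known. The deposited values are natural logs, ln(1 + x), where x is a gene's UMIs for every 10000 in the cell. All 48197283 values above 0 gave whole UMIs within a tolerance of 0.001, so the counts were recovered.

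UMIs were summed over groups of cells and given as CPM with exact intervals. The members and lists were chosen with earlier results of these data known. Clustering was done per library in scanpy 1.11.5 (2000 variable genes without the members, 30 principal components, 15 neighbours, leidenalg 0.10.2 at resolution 1). Names came from marker lists: a cluster took the class whose markers stood highest, on average and in log2, above their 25th percentile over clusters, where 3 or more markers stood at least 1 above it. After the clusters had been seen, 3 of them led by genes of another type were left unnamed, and 4 dermal-like ones with more leading markers of another class were kept. The genes named in the text are the members, those of the lists, and the 3 of highest r for each member, of which some are not reported here by name but stand in the counts and medians of their lists. Scrublet found 0 doublets at E13.5, where it was treated as not working, 84 at E16.5 and 106 at P0, and none was removed. The call rule was tested on simulated Poisson counts, which hold no spread between animals or cells and so cannot speak to it. Positions come from GENCODE vM21, which holds all 7 symbols. Alternatives changed the choice of cells, their weight, the minimum of genes per cell, doublets, the call rule, the clustering and the thinning. The alternatives with all Schwann-like cells, with no cluster left unnamed and without those 4 clusters were added after the data had been seen.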

Additional observations from a re-analysis of the deposited data

Results flagged for a closer look

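*Pmp22* moved in opposite directions relative to other cells at different stages. Its log2 ratio of *Sox10*+ *Pmel*- cells to all other cells was -0.51 for E13.5, 0.55 for E16.5 and 1.24 for P0. For Schwann-like cells against all others it was -0.41, 1.12 and 2.13. The interval of each of these ratios left out no change, and there was 1 library per stage, so the difference between stages was not tested. Dermal-like cells, which lead the other cells in *Pmp22* at the later stages, were 39.2%, 63.1% and 49.1% of the cells at the 3 stages, and their part in this was not tested.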

How the results depend on the processing

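The members called higher in *Sox10*+ *Pmel*- cells than in all others, 5, 6 and 7 by stage, stayed within 5 to 7 under every alternative run. The share of all genes called was not set beside the counts under the alternatives, so changes in these counts are not read as a trait of the members. The comparison with *Sox10*+ *Pmel*+ cells depended most on the settings. At E13.5 its count of 0 became 1 with all of *Pmel*, *Dct*, *Tyrp1*, *Tyr* and *Mlana* at 0 or with equal weight for each cell, 3 with at least 2 *Sox10* UMIs, with thinned cells, with a fold of 1.5 or with all Schwann-like cells, and 4 with Schwann-like *Sox10*+ *Pmel*- cells only. At E16.5 its count of 3 became 5 with equal weight or a fold of 1.5, 6 with at least 2 *Sox10* UMIs, thinned cells or Schwann-like ones only, and 7 with all Schwann-like cells. The 2 members higher at E16.5 than at E13.5 became 4 with equal weight or a fold of 1.5, and the 2 higher at P0 than at E16.5 became 1 with at least 2500 genes per cell. Without thinning, the median share of *Sox10*+ *Pmel*- cells with a UMI went from 15.3% to 31.3% at E13.5 and from 22.4% to 45.3% at E16.5. No called ratio changed its direction: 378 kept their side of the call, 44 gained a call and 5 lost it, namely *Fabp7* and *Foxd3* against *Sox10*+ *Pmel*+ cells, *Cdh19* against all other cells and *Pmp22* between stages, all at P0. Levels stayed inside the reported interval under 167 alternatives and left it under 99, which include every level with at least 2 *Sox10* UMIs but those of *Mbp* and *Pmp22* at E13.5. Without 4 dermal-like clusters, Schwann-like cells led for the same members at each stage, and the *Pmp22* level of dermal-like cells went from 252 to 259.8 CPM at E16.5. The doublet alternative was not run at E13.5, and no cause was tested for any of these. No paired analysis was possible because each stage had 1 library. Depth limits *Mbp* at E13.5 and *Cdh19* at every stage, on 61 UMIs or fewer.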

Other observations

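Some members also had UMIs in lineages where they are not known as markers, and these genes were picked out after their values had been seen. *Mbp* had 57 UMIs (12.7 CPM) in epithelial-like cells at E13.5 and 146 (9.61 CPM) at E16.5, against 1.41 and 1.71 CPM in dermal-like cells. In pericyte-like cells *Fabp7* had 78 UMIs (37.4 CPM, 29.6 to 46.7) at E16.5 and 11 (6.42 CPM) at P0, where dermal-like cells had 1.54 and 0.612 CPM. *Foxd3* had 10 UMIs (10.2 CPM, 4.89 to 18.7) in 5 of 123 mast-like cells at E13.5, and 1 UMI in mast-like cells at E16.5. Of the 123 cells, 13 (10.6%) were *Sox10*+ *Pmel*-, and their part in the *Foxd3* UMIs was not tested. *Erbb3* over the whole library went from 8.12 to 9.03 and 15.3 CPM while its share in Schwann-like cells went from 30.3% to 28.6% and 6.73%, and epithelial-like cells, at 23.9, 21.6 and 26.5 CPM, were 8.62%, 18.3% and 31.4% of the cells. The part of these shares in the level of the whole library was not tested.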
